A study of Ulmus minor with 54 samples.

Results

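The comparison described here asked how leaves of the field elm, Ulmus minor, that had carried simulated insect eggs stood 24 h after larvae had been placed on them. It set 3 libraries of simulated eggs followed by larvae (PT, 24 h) against 3 libraries of simulated eggs alone (PC, 24 h), 6 of the 54 libraries of the series. Transcripts were included when their median level over the 18 untreated libraries (C and CC) was at least 0.5 counts-per-million (CPM) of the library total, a rule that uses no PT or PC library. By this rule 71158 of 237477 assembled sequences were leaf-expressed, 54957 of them contigs and 16201 scaffolds. All 71158 passed the low-count filter and were among the 147417 sequences tested. The other 166319 sequences, which lay below this level in untreated leaves, were set aside.

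All libraries came from leaves of wild-type greenhouse trees, 15 to 19 weeks old, raised from one clonal in vitro culture. To simulate egg laying, a strip of epidermis was removed with a scalpel and the wound was covered with oviduct secretion of gravid elm leaf beetles. PT and PC leaves both carried this wound and secretion. PT leaves received 5 neonate larvae each, 7 days later, and PC leaves none. The other groups used here were CC, which received neither stimulus, and CT, which received larvae alone. PT and PC leaves were also harvested at 1 and 6 h. A separate set of untreated (C) and egg-treated (P) leaves was harvested 1, 6 and 24 h after the simulated eggs. Each group had 3 libraries of polyadenylated RNA from tissue around the treated site. CC and C leaves were not scratched, whereas the comparison of PT with PC differs in the larvae alone. The labels do not say whether the libraries of a group came from separate trees, so the p-values measure the spread between libraries, which may be partly technical.

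When larvae chew a leaf, wounding and compounds from the insect's mouth raise the hormone jasmonic acid, which removes JAZ repressor proteins and lets transcription factors such as MYC2 switch on defence genes. Typical products are proteinase inhibitors, polyphenol oxidases and phenolic compounds, and genes of photosynthesis and growth often fall in attacked leaves. Eggs laid before the larvae hatch can alter this later response, which is called priming. The elm leaf beetle is a specialist of elms, and its eggs make elm leaves release odours that attract a wasp that parasitises the eggs. The deposited table pairs no identifier with a gene name, so none of these genes was looked up, the leaf tissue was not checked against marker genes, and no function is given to a transcript below.

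The 6 libraries held 30370732 to 60549406 reads, and 96.5 to 98.0% of them lay on leaf-expressed transcripts. The 10 most abundant sequences took 28.1%, 9.17% and 31.6% of the reads in the 3 PT libraries and 8.60 to 16.2% in PC. PT replicate 2 was thus unlike the other PT libraries in how far its reads were concentrated, and its TMM scaling factor was 1.25 against 0.866 and 0.827. The median transcript varied between libraries of a group by an SD of 0.18 in PT and 0.20 in PC on the log2 scale, with 0.5 CPM added. Replicate 1 of CT at 24 h stood apart from all other libraries, with 14667334 reads on 62026 sequences and 80.3% of them in its 10 most abundant. It is in the fit and enters the comparisons with CT, so the main counts and medians of those comparisons are also given without it. Reads were also concentrated, among others, in PT 6 h replicate 1 and CT 24 h replicate 3. Their 10 most abundant sequences took 58.5% and 51.5%.

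After 24 h of feeding, 3081 leaf-expressed transcripts were higher in PT and 3713 were lower by edgeR's quasi-likelihood test. A call needed a p, adjusted by the method of Benjamini and Hochberg (BH) over all sequences tested, of 0.05 or less, with no minimum fold. The called transcripts are named risers and fallers below. The risers made up 4.33% of the leaf-expressed transcripts, against 4.63% called higher over all sequences tested. The fallers made up 5.22%, against 3.03% called lower over all sequences tested. In either direction 9.55% were called, against 7.66% over all sequences. A further part did not pass the adjustment, and 25.2% had an unadjusted p of at most 0.05. The median log2 fold change over all 71158 transcripts was -0.10, and 57.0% of them had a negative one. In bulk tissue, a change in the number of cells of a type and a change in RNA per cell cannot be told apart.

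Whether rises or falls were more frequent varied with the fit. With scaling factors taken from the leaf-expressed transcripts alone, 3862 rose and 3387 fell (8034 and 4055 over all sequences tested). The median log2 fold change of the leaf-expressed transcripts was then -0.03. Without PT replicate 3, 1604 rose and 1075 fell (3913 and 1264 over all sequences tested). Leaving out other libraries also moved the leaf-expressed counts by over 1.5 times. The risers numbered 1805, 1671 and 1952 without PC replicate 1, 2 and 3. The fallers numbered 2004 and 1692 without PC replicate 1 and 2, and 2058 and 2411 without PT replicate 1 and 2. Without CT 24 h replicate 1, which belongs to neither group but adds to the shared estimate of spread, 4808 rose and 6325 fell. Over all sequences tested, 9488 rose and 7368 fell in that fit. The 4808 and 6325 included all 3081 risers and all 3713 fallers.

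The rises reached further than the falls. The median log2 fold change was 1.59 among risers and -1.28 among fallers. The middle 90% of values ran from 0.83 to 4.05 in risers and from -2.49 to -0.78 in fallers, and the most extreme values were 7.73 and -5.31. At least 2-fold changes were found in 2678 risers and 2887 fallers. At 4-fold these numbers were 974 and 476, at 8-fold 374 and 78, and at 16-fold 165 and 12. Rises of 4-fold or more thus outnumbered such falls, although fallers were the more numerous in the main fit when no minimum fold was set. Selection for a small p inflates such sizes, and the median SE of a leaf-expressed transcript was 0.34 on the log2 scale.

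**Figure D1:**
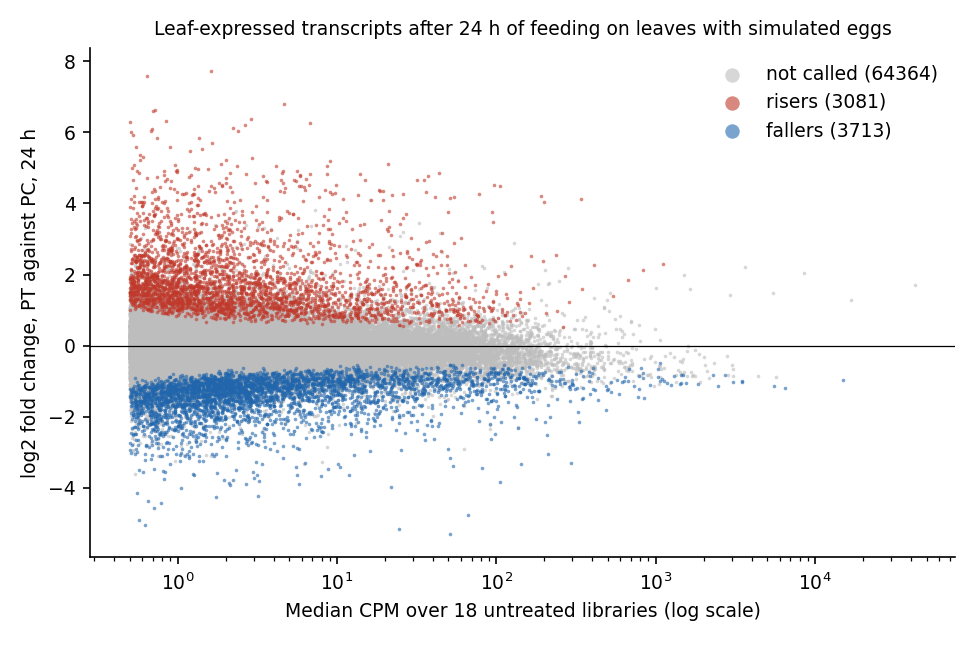
Log2 fold change in PT against PC at 24 h (vertical axis) of each leaf-expressed transcript against its median CPM over the 18 untreated libraries (horizontal axis, log scale). Risers (3081) reach up to 7.73 and fallers (3713) down to -5.31, and the transcripts not called lie around 0.

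The libraries of the 2 groups did not overlap in level for 3059 of the 3081 risers and 3652 of the 3713 fallers. The same held for 27783 of all leaf-expressed transcripts and for 31.4% of all sequences tested, called or not. The called transcripts were chosen on this same contrast, so their shares only describe them.

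The share of fallers rose with the level of a transcript in untreated leaves. Among the 22858 transcripts at 0.5 to 1 CPM, 869 rose (3.80%) and 634 fell (2.77%). Among the 37302 transcripts at 1 to 10 CPM, 1679 rose (4.50%) and 2099 fell (5.63%). Among the 9705 at 10 to 100 CPM, 491 rose (5.06%) and 774 fell (7.98%). Of the 1293 most abundant transcripts, at 100 CPM or more, 42 rose (3.25%) and 206 fell (15.9%). Riser shares lay between 3.25% and 5.06% while faller shares increased from each class to the next. The classes use no PT or PC library, but more reads also give a smaller error. The median SE went from 0.39 in the lowest class to 0.28 in the highest.

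The same order was seen in all transcripts of a class, called or not. The median log2 fold change was -0.05, -0.11, -0.11 and -0.34 from the lowest to the highest class. In the class of 100 CPM or more, 72.9% of the transcripts lay below 0, against 53.1% at 0.5 to 1 CPM. With scaling factors from leaf-expressed transcripts alone the medians were 0.02, -0.04, -0.05 and -0.28, so the class at 0.5 to 1 CPM changed sign and the most abundant class did not. Over 13 refits the median of the most abundant class stayed between -0.39 and -0.27, and its fallers outnumbered its risers in each. At 1 to 10 CPM the balance turned, for example to 2061 risers and 1877 fallers under that scaling and to 882 and 581 without PT replicate 3.

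**Figure D2:**
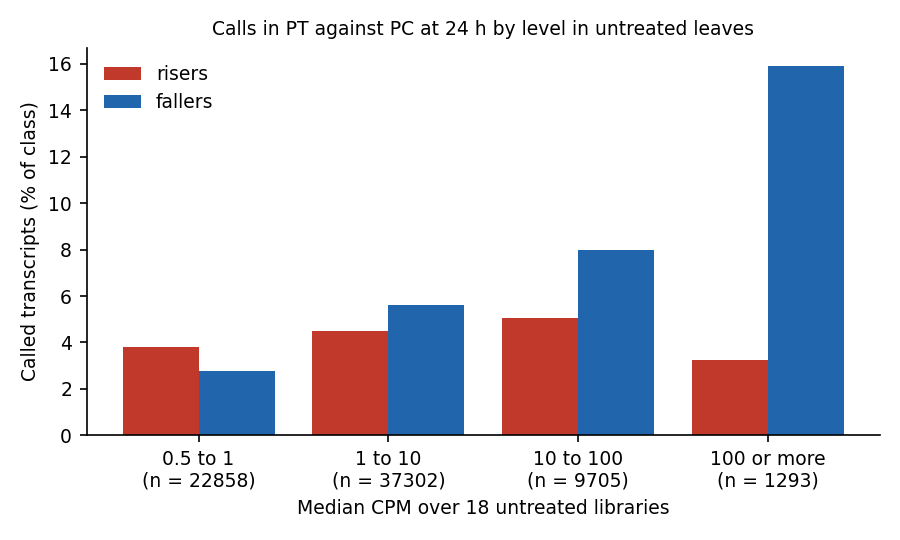
Percent of leaf-expressed transcripts called as risers or fallers in PT against PC at 24 h (vertical axis), by median CPM over 18 untreated libraries (horizontal axis, number tested under each class). Faller shares go from 2.77% to 15.9% and riser shares stay between 3.25% and 5.06%.

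From 0.5 to 100 CPM, called transcripts were smaller in size of change where they were more abundant, and the riser median was larger again above 100 CPM. The median log2 fold change of risers was 1.81, 1.55, 1.24 and 1.37 in the 4 classes, and that of fallers -1.56, -1.29, -1.08 and -1.03. Rarer transcripts need a larger change to pass the test, so this order is partly set by the call. Scaffolds, which are contigs joined by the assembler, rose more often than contigs (5.30% against 4.04%) and fell less often (4.69% against 5.37%). Scaffolds fell less often in each of the 4 classes, but they did not rise more often in each. At 10 to 100 CPM 4.81% of scaffolds and 5.46% of contigs rose, and 5.96% and 11.3% fell. These differences between kinds of sequence were not tested, and pieces of 1 gene can be counted as several sequences.

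The 0.5 CPM limit divides a continuous range. Of the 6315 transcripts just inside it, at 0.5 to 0.6 CPM, 234 rose (3.71%) and 137 fell (2.17%). Of the 8378 just outside, at 0.4 to 0.5 CPM, 312 rose (3.72%) and 161 fell (1.92%). Sequences further below differed more. Under 0.1 CPM, 1716 of 14433 tested sequences rose and 69 fell, but such sequences pass the low-count filter mainly through a group in which they are high. Sequences under 0.1 CPM took 7015, 11359 and 6021 reads-per-million (RPM, not TMM-scaled) in the 3 PT libraries and 3954, 4900 and 4158 in PC, without overlap. The exact 2-sided permutation test gave p = 0.1, the smallest that 3 against 3 libraries can give. Larval RNA could not be separated from leaf RNA, and its part in these reads was not tested.

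In reads, the risers took 120876, 142168 and 128199 RPM in the 3 PT libraries and 32364, 26913 and 28492 RPM in the 3 PC libraries. The group means were 130414 ± 10817 and 29256 ± 2805 RPM (SD, n = 3 each). The fallers went the other way, from 183446, 167240 and 147561 RPM in PC to 71409, 80597 and 53855 RPM in PT (means 166082 ± 17970 and 68620 ± 13587 RPM, SD, n = 3 each). The other leaf-expressed transcripts held 764508 to 804442 RPM in PC and 742312 to 794978 RPM in PT, which overlapped. The risers gained about as many reads as the fallers lost. RPM sum to the same total in each library and the lists were chosen on these libraries, so this balance is only a description.

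Levels over the whole lists showed how uniform the 3 PT libraries were. Each library's median log2 difference from the mean of PC at 24 h was taken over the 3081 risers. It was 1.16, 1.16 and 1.41 in the 3 PT libraries. Over the 3713 fallers it was -0.89, -0.86 and -1.09. PT replicate 3 was the most extreme library in both lists. The lists were chosen on these 6 libraries, so these values are descriptions. The CC libraries helped to set the level rule, and all triggering libraries were in the same fit. The CC libraries and the PC libraries of 1 and 6 h were not part of the PT against PC contrast at 24 h. In them the risers lay between -0.07 and 0.38 and the fallers between -0.38 and 0.06, so that no unfed library came near PT at 24 h. In the fed libraries of 6 h the risers lay at 0.70 ± 0.05 in PT and 0.66 ± 0.16 in CT (SD, n = 3 each), all above the unfed libraries. The fallers lay at -0.39 ± 0.09 and -0.34 ± 0.10 (SD, n = 3 each), where most of these libraries overlapped the unfed range. Larvae alone gave 1.16 ± 0.41 for risers and -1.19 ± 0.37 for fallers in CT at 24 h (SD, n = 3 each). That spread came mostly from CT replicate 1, at 0.69 and -1.62.

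**Figure D3:**
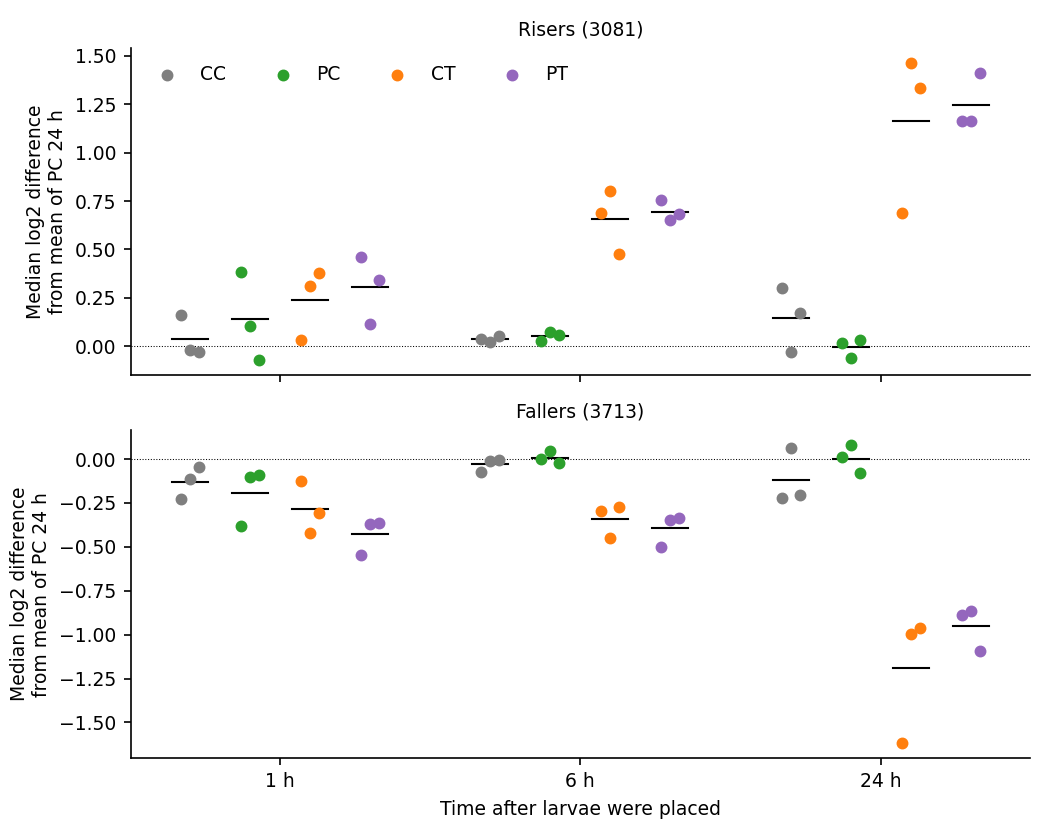
Median log2 difference of the risers (upper panel) and fallers (lower panel) from the mean of PC at 24 h, on log2 of CPM plus 0.5, in each of 36 libraries at 1, 6 and 24 h. Points are libraries and black lines are group means. PT at 24 h lies at 1.16 to 1.41 for risers and -1.09 to -0.86 for fallers.

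Reads were spread unevenly within the lists. The 10 most abundant risers of each library took 26.6 to 35.1% of its riser reads in PT and 17.9 to 24.2% in PC. The 10 most abundant fallers took 28.5 to 36.2% of the faller reads over the 6 libraries. The median level in untreated leaves was 1.96 CPM for risers, 2.94 CPM for fallers and 1.64 CPM for all leaf-expressed transcripts.

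C231669 was the riser with the smallest p among those whose mean log2 CPM was 1 or more. Levels of single transcripts are given in TMM-scaled CPM, which is not corrected for length, so they are compared between libraries only. C231669 stood at 35.1, 37.7 and 51.7 CPM in PT and at 1.97, 1.81 and 1.86 CPM in PC at 24 h. Every PT library was far above every PC library, and the PC libraries lay close together. The means were 41.5 ± 8.92 and 1.88 ± 0.0823 CPM (SD, n = 3 each), with a log2 ratio of 4.46 ± 0.43 (SE; edgeR BH-adjusted p = 1.56e-07). It had already risen at 6 h, to 31.9, 10.9 and 19.7 CPM in PT against 2.06, 2.10 and 1.99 CPM in PC (log2 ratio 3.34 ± 0.41, SE; edgeR BH-adjusted p = 2.73e-05). At 1 h the PT libraries stood at 5.48, 1.84 and 4.55 CPM, overlapping PC, and the test did not call it (log2 ratio 0.88 ± 0.38, SE; edgeR BH-adjusted p = 0.534). Leaves with larvae alone reached 34.9, 56.9 and 55.9 CPM in CT at 24 h against 2.52, 1.64 and 2.09 CPM in CC. In the set harvested within a day of the simulated eggs its P level was 11.8 ± 7.49 CPM at 1 h, then 32.1 ± 10.9 CPM at 6 h, against 2.09 ± 0.333 and 4.86 ± 4.48 CPM in C (SD, n = 3 each). At 24 h the P libraries held 6.40, 9.91 and 7.69 CPM and overlapped the C libraries (log2 ratio -0.03). That set was scaled separately. One untreated C library of 24 h held 18.9 CPM, where the others held 2.11 and 3.39 CPM.

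C609291 was the other riser named by the rule, and it rose late. It stood at 17.6, 12.8 and 10.5 CPM in PT and 1.23, 0.878 and 1.14 CPM in PC at 24 h. The groups were far apart, with means of 13.6 ± 3.61 and 1.09 ± 0.184 CPM (SD, n = 3 each; log2 ratio 3.65 ± 0.36, SE; edgeR BH-adjusted p = 1.61e-07). At 6 h the PT libraries held 3.35, 0.986 and 1.46 CPM and the PC libraries 1.46, 1.08 and 0.952 CPM, and the groups overlapped. At 1 h they held 1.33, 1.58 and 1.27 CPM against 1.78, 2.36 and 1.22 CPM. CT stood at 11.5, 14.1 and 11.7 CPM at 24 h, where CC stood at 1.00, 0.444 and 0.607 CPM. The rise was therefore seen at 24 h with and without earlier simulated eggs.

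Of the fallers, C79791 stood at 1.15, 0.807 and 0.919 CPM in PT and 3.25, 4.05 and 4.08 CPM in PC at 24 h. All PT libraries lay below all PC libraries (means 0.959 ± 0.176 and 3.80 ± 0.472 CPM, SD, n = 3 each; log2 ratio -1.99 ± 0.26, SE; edgeR BH-adjusted p = 9.02e-06). It was also called lower at 6 h, at 1.31, 1.77 and 2.06 CPM against 3.65, 3.76 and 3.51 CPM (log2 ratio -1.08 ± 0.25, SE; edgeR BH-adjusted p = 0.0213). At 24 h CT lay at 0.679, 0.901 and 0.948 CPM and CC at 2.31, 3.21 and 2.82 CPM. The 0.679 CPM of CT replicate 1 rested on 3 reads.

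Scaffold1833 was the more abundant of the named fallers. It stood at 4.49, 4.74 and 3.31 CPM in PT and 17.2, 23.1 and 15.9 CPM in PC at 24 h, without overlap (means 4.18 ± 0.760 and 18.7 ± 3.82 CPM, SD, n = 3 each; log2 ratio -2.16 ± 0.28, SE; edgeR BH-adjusted p = 9.18e-06). At 6 h the PT libraries held 15.1, 19.2 and 20.4 CPM and the PC libraries 25.3, 21.8 and 19.8 CPM, which overlapped (log2 ratio -0.29 ± 0.27, SE; edgeR BH-adjusted p = 0.707). CT held 2.72, 2.95 and 4.59 CPM and CC 13.1 to 25.4 CPM at 24 h. The 2.72 CPM of CT replicate 1 rested on 12 reads.

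**Figure D4:**
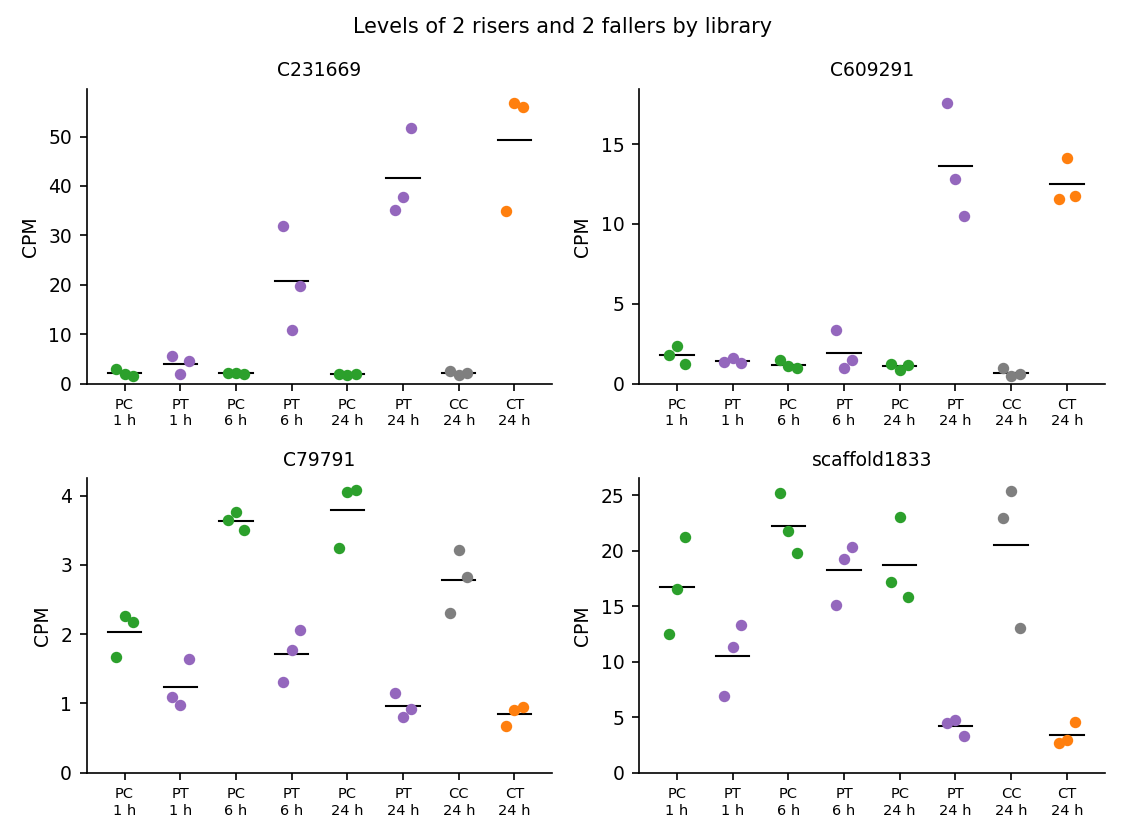
TMM-scaled CPM (vertical axes, linear from 0) of C231669, C609291, C79791 and scaffold1833 in the PC and PT libraries of 1, 6 and 24 h and the CC and CT libraries of 24 h. Points are libraries and black lines are means of 3. At 24 h the fed and unfed groups do not overlap in any of the 4 panels.

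At 6 h, in other libraries, the feeding response of egg-treated leaves was mostly rises. In PT against PC at 6 h, 545 leaf-expressed transcripts rose (0.766%, against 1.09% of all sequences tested) and 113 fell (0.159%, against 0.108% of all), 658 in all (0.925%, against 1.20%). Leaving out 1 library at a time gave 159 to 1612 calls, the lowest without PC 6 h replicate 2 and the highest without CT 24 h replicate 1. Without the other libraries it was 212 and 204 (PC replicates 1 and 3), 298, 376 and 405 (PT replicates 1, 2 and 3). At 1 h no leaf-expressed transcript was called by edgeR's quasi-likelihood test, against 0.000678% of all sequences, while 5675 (7.98%) passed 0.05 before adjustment. By DESeq2's Wald test 558 were called at 1 h (280 higher and 278 lower, against 490 and 309 over all sequences). In edgeR the count was 278 without PC 1 h replicate 1 (232 higher and 46 lower, against 482 and 65 over all sequences). It was 102 without CT 24 h replicate 1 (48 and 54, against 90 and 63). Without PT 1 h replicate 2 it was 79 (74 and 5, against 173 and 5).

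The risers of 24 h already leaned upward at 6 h. Their median log2 fold change at 6 h was 0.81 (all leaf-expressed transcripts, -0.07), and 2931 of 3081 were positive (95.1%, against 43.8% of all leaf-expressed transcripts). At least 2-fold rises were seen in 1228 of them. Only 454 were themselves called at 6 h, which is 14.7% of the 24 h risers and 83.3% of the 545 transcripts called higher at 6 h. The fallers had a median of -0.49 at 6 h, and 3407 of 3713 were negative (91.8%). Of the fallers 52 were called lower at 6 h, 1.40% of the list and 52 of the 113. At 1 h the medians were 0.18 for risers and -0.29 for fallers, with 66.3% and 81.5% of them in the direction of 24 h (median of all leaf-expressed transcripts, -0.06). Without any 1 library these medians ran from 0.06 to 0.35 and from -0.39 to -0.21.

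The risers called at both hours had the larger medians. They were split by the 6 h call, so the order at 6 h follows from the split, and all were chosen at 24 h. The 454 had median log2 fold changes of 0.63, 2.09 and 2.44 at 1, 6 and 24 h, where the other 2627 risers had 0.13, 0.69 and 1.49. Among fallers it was otherwise, as the 52 called at 6 h had a 24 h median of -1.19 and the other 3661 had -1.28. A further 91 transcripts were called higher at 6 h but not at 24 h, with medians of 1.66 at 6 h and 0.77 at 24 h. The 61 called lower at 6 h alone had medians of -1.33 and -0.66. Both medians kept their sign at 24 h, and the loss of a call is not a test of a change between hours.

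The change of the response between hours was tested directly. Between 24 h and 6 h, 1 leaf-expressed transcript passed, C609291 (0.00141%, against 0.00204% of all sequences tested). An unadjusted p of at most 0.05 was found for 4112 (5.78%). The feeding response of C609291 was 2.94 ± 0.48 (SE) log2 units higher at 24 h (edgeR BH-adjusted p = 0.035). This call was lost in 11 of 18 alternatives, among them those without any 1 of the PC libraries of 6 or 24 h, PT 6 h replicate 2 or 3, or PT 24 h replicate 1 or 2, with an adjusted p of up to 0.273. Between 24 h and 1 h, 463 passed (0.651%, against 0.575% of all sequences), 369 with a higher response at 24 h (0.519%, against 0.488%) and 94 with a lower one (0.132%, against 0.0875%). The 463 calls became 105, 253 and 1015 without PC 1 h replicate 1, 2 and 3, and 207, 138 and 242 without PC 24 h replicate 1, 2 and 3. They became 117 and 271 without PT 1 h replicate 2 and 3, 150 without PT 24 h replicate 3 and 1195 without CT 24 h replicate 1. Of the 369, 364 were risers of 24 h, and 83 of the 94 were fallers, in tests that share the 24 h libraries.

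Among those 463, C263837 had the smallest p. It stood at 27.1, 25.6 and 21.7 CPM in PT and 0.632, 0.747 and 0.402 CPM in PC at 24 h, and at 0.398, 0.309 and 0.293 CPM against 0.986, 0.546 and 0.279 CPM at 1 h. The groups were far apart at 24 h and overlapped at 1 h (difference of responses 6.22 ± 0.74, SE, on the log2 scale; edgeR BH-adjusted p = 7.57e-05). At 6 h it had reached 4.37, 6.34 and 4.23 CPM in PT against 0.303, 0.237 and 0.173 CPM in PC. Its unfed level was low, with a median of 0.577 CPM in untreated leaves and 8 to 56 reads in the PC libraries. In the separately scaled set without larvae, its log2 ratio of P to C was 0.96, 3.05 and 1.72 at 1, 6 and 24 h. The response of C609291 was higher at 24 h than at 1 h by 4.00 ± 0.48 (SE; edgeR BH-adjusted p = 7.57e-05).

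Of the transcripts with a lower response at 24 h, scaffold1784 held 1.39, 1.68 and 0.876 CPM in PT against 5.48, 6.52 and 5.91 CPM in PC at 24 h. At 1 h it held 7.82, 8.18 and 5.22 CPM against 5.50, 5.66 and 6.85 CPM, and at 6 h 7.71, 8.15 and 6.59 CPM against 6.45, 6.94 and 8.52 CPM. It was thus separate between the groups at 24 h and overlapping at the earlier hours (difference of responses -2.41 ± 0.45, SE; edgeR BH-adjusted p = 0.00642). Scaffold6788 fell from a higher level, to 33.8, 30.4 and 28.4 CPM in PT against 83.1, 84.0 and 72.8 CPM in PC at 24 h, and stood at 73.8, 76.6 and 69.1 CPM against 56.3, 82.1 and 73.6 CPM at 1 h. Its difference of responses was -1.42 ± 0.27 (SE; edgeR BH-adjusted p = 0.00823), and the adjusted p was 0.0633 without PC 1 h replicate 1.

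Feeding without earlier eggs gave a response of the same direction for nearly all of these transcripts. CT against CC at 24 h shares no library with PT against PC, although the 3 CC libraries are among the 18 that set the level rule. In CT against CC, 3521 leaf-expressed transcripts rose (4.95%, against 5.05% of all sequences tested) and 7149 fell (10.0%, against 5.64%), together 10670 (15.0%, against 10.7%). This split depends on the fit, and its balance turned in one of them. With only the CT and CC libraries of 24 h fitted, 1037 were higher and 383 lower (2061 and 484 over all sequences tested). With scaling factors from leaf-expressed transcripts alone it was 5000 higher and 5593 lower (9440 and 6515 over all). Without CT 24 h replicate 1 it was 4295 and 5583 (7916 and 6398 over all). Without CC replicate 2 the calls of both directions came to 5828.

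Of the 3081 risers, 3062 were positive in CT against CC (99.4%; 36.3% of all leaf-expressed transcripts were), with a median log2 fold change of 1.38 against -0.23 over all leaf-expressed transcripts. Without CT 24 h replicate 1 these medians were 1.49 and -0.11 (-0.39 over all without replicate 2). In the main fit, 1942 of the risers were called higher in CT against CC, 63.0% of the risers and 55.2% of the 3521. Of the 3713 fallers, 3668 were negative (98.8%), with a median of -1.27 (-1.15 without CT 24 h replicate 1). In the main fit, 2477 of the fallers were called lower in CT against CC, 66.7% of the fallers and 34.6% of the 7149. None of either list was called in the opposite direction. Without CT 24 h replicate 1, 2227 risers and 2218 fallers were called. The 1139 risers that were not called in CT against CC still had a median of 0.81 there, and the 1236 such fallers -0.78, so a missing call does not mark an absent response. Transcripts are not independent replicates, and as a description over 71158 transcripts the log2 fold changes of these 2 comparisons had a Pearson r of 0.77 and a Spearman rho of 0.70. With PT against PC at 6 h these were 0.62 and 0.58, and at 1 h 0.30 and 0.27. All libraries of the set share 1 assembly and 1 scaling.

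**Figure D5:**
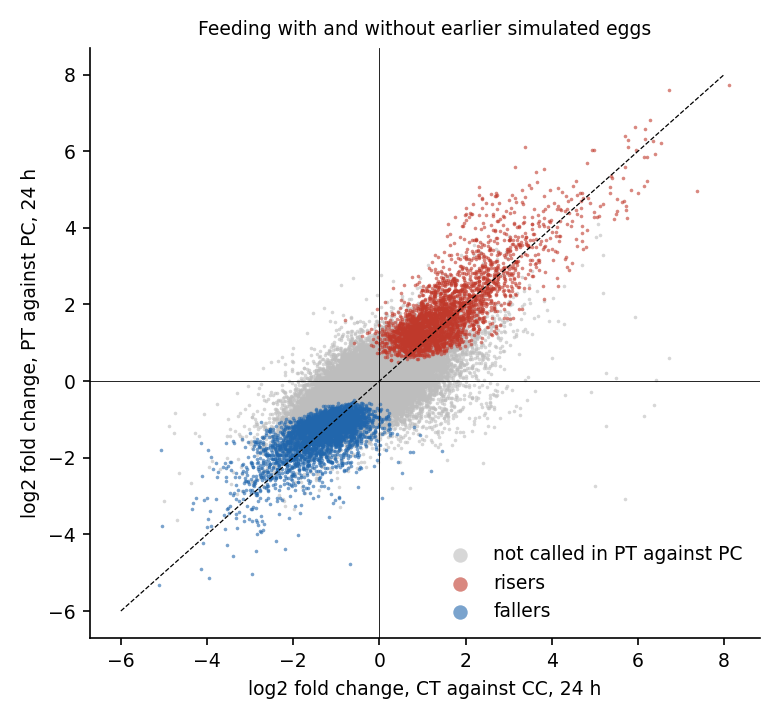
Log2 fold change of each leaf-expressed transcript at 24 h in PT against PC (vertical axis) and in CT against CC (horizontal axis), with the line of equal change dashed. Of the risers 99.4% lie on the positive side of CT against CC, and of the fallers 98.8% lie on the negative side.

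An interaction, the change in feeding response that came with earlier eggs, passed for none of the 71158 transcripts at 24 h in edgeR's quasi-likelihood test (0% of all sequences tested). At the unadjusted level of 0.05 there were 2891 (4.06%). DESeq2's Wald test called 6, 1 higher and 5 lower, against 7 higher and 28 lower over all sequences tested. The median SE of this difference was 0.50 on the log2 scale, against 0.34 for the feeding response itself, and the median transcript varied by an SD of 0.66 between the CT libraries against 0.18 in PT. The result therefore does not show that the responses were alike. The median of the difference over all leaf-expressed transcripts was 0.16, and it rested on single CT libraries. It was 0.03 without CT 24 h replicate 1, 0.33 without replicate 2 and 0.28 without replicate 3, and 0.09 with scaling from leaf-expressed transcripts alone. The number with an unadjusted p of 0.05 or less was 2403, 6793 and 5536 without CT replicate 1, 2 and 3, with 0 calls each time.

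The 24 h lists were also read in the separate set harvested within a day of the simulated eggs, in which no larvae were present. In P against C the risers had median log2 fold changes of 0.40, 0.31 and 0.21 at 1, 6 and 24 h, and 80.7%, 82.7% and 74.4% of the 3081 were positive. All leaf-expressed transcripts had medians of -0.01, -0.01 and -0.02, with 49.2%, 49.2% and 47.4% in that direction. No test was made of these medians. The fallers had medians of -0.11, -0.12 and -0.16. At 24 h 1 untreated library held much of the spread. The risers took 108921 RPM in C replicate 2 and 41861 and 59240 RPM in the other C libraries of 24 h. The riser median at 24 h was 0.40 without that library and 0.09 without C replicate 1. The faller median at 24 h was -0.26 without C replicate 2 and -0.08 without C replicate 1, and -0.05 and -0.31 without P replicate 2 and 3.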

How the data were processed

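The authors deposited raw read counts of assembled sequences, 1 column per library, matched to libraries by the number in the labels. Columns without a sample numbered 0. Base calling with CASAVA and trimming with Trimmomatic 0.33 are named per the submitters' processing notes. Not given in the sources used here are the assembler, aligner, counter and use of strand, so reads cannot be told apart between paralogs, overlapping or antisense sequences.

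All 36 triggering libraries (12 groups) were fitted together in edgeR 4.0.16 (R 4.3.3) after filterByExpr (minimum count 10, minimum total 15) and TMM scaling, with glmQLFit and glmQLFTest. Calls needed a p of 0.05 or less after Benjamini-Hochberg (BH) adjustment over 147417 sequences. SEs are the log2 fold change over the square root of F. C and P libraries were fitted separately. Alternatives used DESeq2 1.42.0, other scaling, other filters and fewer libraries. The procedure was tested on simulated data.

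The level rule used CPM over library totals, other levels TMM-scaled CPM. Depth limits rare transcripts most, as counting error is largest there. Within groups, 54 pairs of libraries had a chi-square per degree of freedom of at least 9.48 over sequences with 10 or more reads, so none were duplicates. The members and lists were chosen with earlier results of these data known. Without gene names, the rule names, at a mean log2 CPM of 1 or more, the 2 risers and 2 fallers with the smallest p whose groups do not overlap, and up to 2 each way per tested difference.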

Additional observations from a re-analysis of the deposited data

Results flagged for a closer look

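In the main fit, a change of the PT against PC response between hours was called for the following named transcripts by a test of the difference itself. Values are on the log2 scale, with edgeR p-values after Benjamini-Hochberg adjustment. The response of C609291 was higher at 24 h than at 6 h by 2.94 (edgeR adjusted p = 0.035) and than at 1 h by 4.00 (edgeR adjusted p = 7.57e-05). The call against 6 h was lost in 11 of 18 alternatives, with an edgeR adjusted p of up to 0.273. At 24 h all 3 PT libraries lay above all 3 PC libraries, and at 6 and 1 h the groups overlapped. The response of C263837 was higher at 24 h than at 1 h by 6.22 (edgeR adjusted p = 7.57e-05), with all 3 PT libraries above PC at 24 h. That of scaffold1784 differed between 24 h and 1 h by -2.41 (edgeR adjusted p = 0.00642), and that of scaffold6788 by -1.42 (edgeR adjusted p = 0.00823), each with all 3 PT libraries below PC at 24 h. The call of scaffold6788 was lost without PC 1 h replicate 1 (edgeR adjusted p = 0.0633).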

How the results depend on the processing

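With 1 library left out at a time, the risers numbered 1604 to 4808, the fallers 1075 to 6325, the 6 h calls 159 to 1612, the 1 h calls 0 to 278, the calls in CT against CC 5828 to 10072, those of 24 h against 6 h 0 to 4 and those of 24 h against 1 h 105 to 1195. The interaction had 0 calls in each of these. Fitting only the compared groups gave 6029 risers, 6703 fallers, 2587 calls at 6 h, 1420 in CT against CC (1037 higher, 383 lower) and 96 for 24 h against 6 h. DESeq2's Wald test gave 5772 fallers, 1859 calls at 6 h, 558 at 1 h, 6 for the interaction, 104 for 24 h against 6 h and 1652 for 24 h against 1 h. Without a low-count filter there were 2389 fallers and 418 calls at 6 h. At a limit of 0.25 CPM, or with the limit on TMM-scaled CPM, there was 1 call at 1 h and there were 2 for 24 h against 6 h, and scaling on leaf-expressed transcripts gave 3 calls at 1 h. The cause of these shifts was not tested.

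C231669, C609291, C79791 and scaffold1833 kept their calls and directions in PT against PC at 24 h under all 13 alternatives. The balance of rises and falls did turn in some fits, as given above for PT against PC and for CT against CC. With the replicate number as a block, 2813 risers and 3262 fallers were called. Same-numbered PT and PC libraries of 24 h correlated at 0.233, 0.0446 and 0.131, and each library correlated best with its own number. Over all pairs the values ran from -0.192 to 0.233, and they do not describe how alike the levels of the libraries were. For PC replicate 2 the margin was small, at 0.0446 with PT replicate 2 and 0.0412 with PT replicate 3. Such a pairing is a hint from the data and not the design. For P against C at 24 h the riser median ran from 0.09 to 0.40 when 1 library was left out, an alternative chosen after seeing the data, as were the counts by level class.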
